A study of Mus musculus with 2 samples.

Results

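Cadherins and protocadherins were described in 2 rhabdoid tumors of Dppa3-cre::Smarcb1 Fl/+ mice. The genes were chosen by name and gene type: every protein-coding row whose symbol was Cdh followed by a number, or began with Pcdh. This gave 92 of the 55416 genes counted, of which 23 were cadherins, 12 were non-clustered protocadherins and 57 were clustered protocadherins of the alpha, beta and gamma gene clusters. Both tumors came from mice with Cre recombinase expressed from the Dppa3 locus and 1 floxed Smarcb1 allele, on the C57BL/6 background, and both were classified as MYC. The labels place 1 tumor inside the skull (intracranial, trigeminal nerve) and the other outside it (extracranial, facial, maxillar). The age of the mice was not given in the sources used here. Dppa3 is active in primordial germ cells and also in oocytes and early embryos, so recombination in this line need not be confined to a single cell type. Each location had 1 library, and the names intracranial and extracranial library stand for these labels alone.

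Cadherins are transmembrane proteins whose calcium-binding extracellular repeats join neighbouring cells. Classical cadherins bind catenins and through them actin, and their type decides which cells adhere: E-cadherin (Cdh1) marks epithelia, N-cadherin (Cdh2) neural and mesenchymal cells, VE-cadherin (Cdh5) endothelium and Cdh11 mesenchyme. Protocadherins adhere more weakly. The clustered ones are chosen from tandem promoters, each cell expressing a subset, which is known best as the surface barcode by which neurites of the same neuron recognise each other.

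The libraries held 34545846 counts (intracranial) and 26915696 counts (extracranial), and 3 counts, the floor under which a gene was treated as background, were worth 0.0863 and 0.112 CPM. Levels are given in CPM, the usual unit of counts relative to library size, after TMM scaling. Without replicates no test between locations was possible, so a ratio is given as log2 of extracranial over intracranial with its exact 95% counting interval. A gene was called when this whole interval lay beyond 4-fold, among genes with 10 or more counts over both libraries. These intervals compare 2 libraries and cover counting error only, and reads carried no molecular identifiers, so that they need not be independent molecules. Smarcb1 itself, the targeted gene, was counted 365 times (10.5 CPM, 9.45 to 11.6) in the intracranial and 530 times (19.8 CPM, 18.2 to 21.6) in the extracranial library. Which cells of these bulk tumors carried the remaining Smarcb1 transcript cannot be told apart.

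Of the 92 genes, 71 reached 10 counts and were tested, 3 others were above the floor in a library, and 18 were at 3 or fewer counts in both. The 7 genes at 0 in both libraries were Cdh16, Pcdha4, Pcdha6, Pcdhac1, Pcdhb1, Pcdhga10 and 1 of the 2 gene IDs named Pcdha11 (ENSMUSG00000102206), and their level was below the floor of each library. The pseudogene row Pcdhgb8 fell outside the selection, with 10 and 38 counts. Together the genes took 40588 counts (0.117%) of the intracranial and 16143 counts (0.0600%) of the extracranial library, a summed level of 1168 and 603.3 CPM. Cdh11 alone supplied 587.4 and 210.8 CPM of these sums. The called genes numbered 13 of the 71 tested (18.3%), where 7.19% of all 21977 tested genes were called. They were Cdh1, Cdh3, Cdh19, Cdh22, Pcdh9, Pcdhb13 and Pcdhb19, higher in the intracranial library, and Cdh8, Cdh18, Pcdh15, Pcdhga2, Pcdhga7 and Pcdhgb5, higher in the extracranial library. The share called higher in the intracranial library was 9.86% (7 genes) against a background of 5.41%, and the share called higher in the extracranial library was 8.45% (6 genes) against 1.78%. Beyond counting error alone, 35 genes were higher in the intracranial and 21 in the extracranial library, and 15 were within it. At the same criterion the background was 32.2% and 29.2% of all tested genes.

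**Figure D1:**
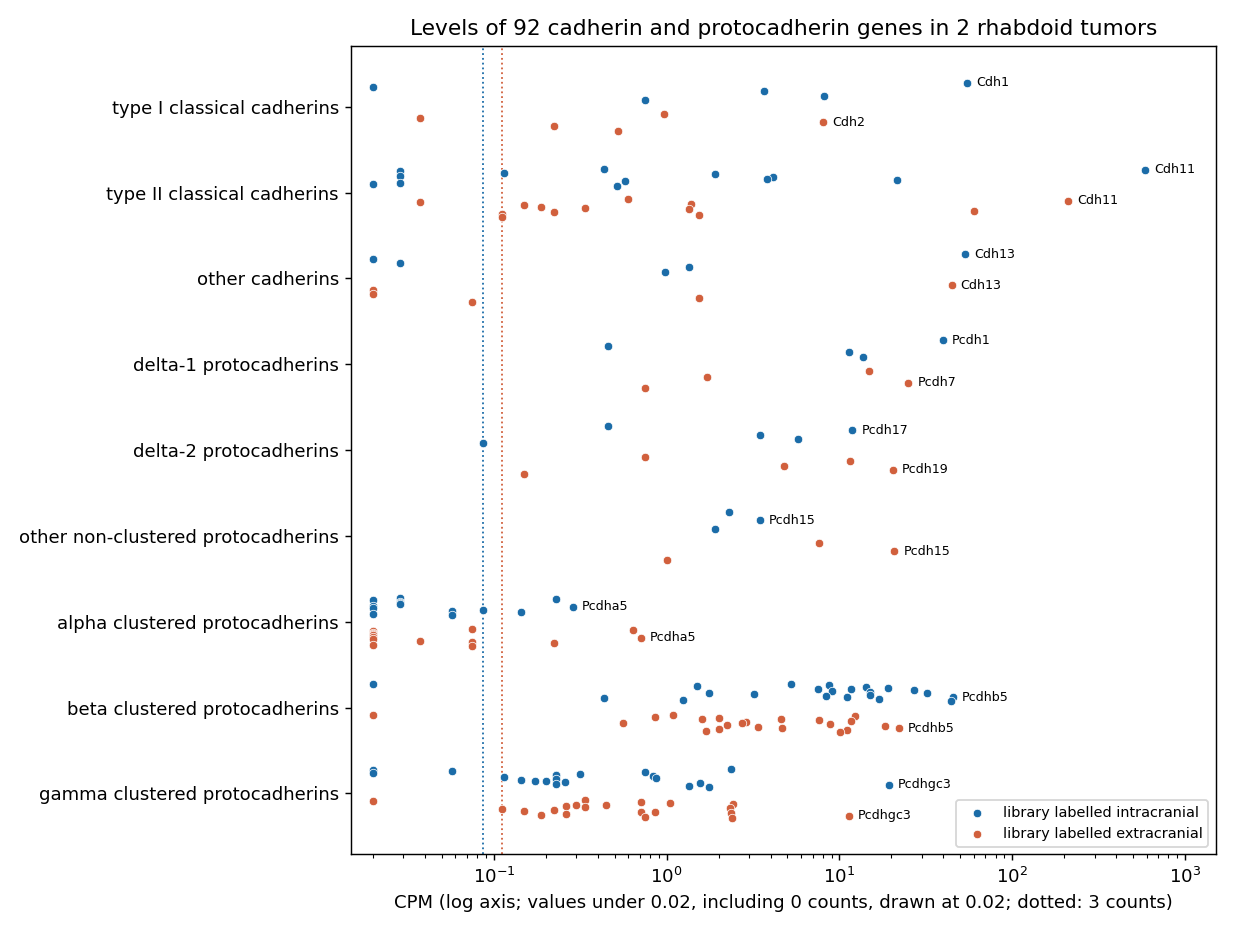
Level of each of the 92 genes in CPM (log axis; a point is 1 gene in 1 library, and values under 0.02 are drawn at 0.02), by class and library, with the gene of the highest CPM named for each class and library and dotted lines at 3 counts. Cdh11 has the highest level in both libraries (587.4 and 210.8 CPM), Cdh1 leads type I in the intracranial and Cdh2 in the extracranial library, and alpha protocadherins lie mostly under the floor.

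Promoter sequence is shown for 3 called genes outside the protocadherin clusters, the brain cadherin Cdh8 and the protocadherins Pcdh9 and Pcdh15, because these had a RefSeq start whose upstream window lay outside the exons annotated for that gene. The windows are the 250 bases before a RefSeq start (build GRCm38.p6, which is not the build of the counts), read 5′ to 3′ in the direction of transcription. The Cdh8 window lies at chr8:99416472-99416721 on the minus strand, Pcdh9 at chr14:93890680-93890929 on the minus strand and Pcdh15 at chr10:73821617-73821866 on the plus strand, before a start that lies inside the annotated gene. Capitals mark the E-box CAGGTG or its reverse complement CACCTG, the letters bound by repressors of the Snail and Zeb families.
Cdh8: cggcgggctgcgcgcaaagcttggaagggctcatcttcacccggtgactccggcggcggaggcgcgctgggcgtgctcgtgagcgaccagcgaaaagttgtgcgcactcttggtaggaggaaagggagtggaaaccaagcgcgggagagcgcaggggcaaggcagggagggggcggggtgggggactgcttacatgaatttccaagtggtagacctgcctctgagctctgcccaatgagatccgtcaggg
Pcdh9: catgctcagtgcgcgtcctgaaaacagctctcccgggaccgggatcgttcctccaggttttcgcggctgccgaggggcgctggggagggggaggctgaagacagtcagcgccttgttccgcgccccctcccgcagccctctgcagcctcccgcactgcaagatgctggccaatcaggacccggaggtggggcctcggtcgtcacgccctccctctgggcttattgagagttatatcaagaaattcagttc
Pcdh15: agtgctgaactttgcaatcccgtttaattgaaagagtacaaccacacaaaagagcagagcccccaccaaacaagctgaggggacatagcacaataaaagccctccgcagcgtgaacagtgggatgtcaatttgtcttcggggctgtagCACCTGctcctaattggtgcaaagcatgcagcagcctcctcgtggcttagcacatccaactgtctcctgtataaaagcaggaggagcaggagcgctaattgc
The Cdh8 and Pcdh9 windows were rich in G and C (64.4% and 63.6%) and held 20 and 18 CG dinucleotides, where the median of all 32851 windows was 52.4% with 6 CG. The Pcdh15 window, at 50.4% with 6 CG, was near that median and held the E-box letters once. Over all windows 17.2% held the letters on either strand. Of the 32 genes on other chromosomes than the clusters, 22 had a window and 2 of these, Cdh7 and Pcdh15, held the letters, which describes the sequence and not a binding site.

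Among type I classical cadherins, the epithelial members were the ones that separated the 2 tumors. E-cadherin, Cdh1 (ENSMUSG00000000303, chromosome 8), had 1906 counts (54.9 CPM, 52.4 to 57.4) in the intracranial library and 26 (0.972 CPM, 0.635 to 1.42) in the extracranial library. The log2 ratio was -5.82 (-6.44 to -5.26), a 56.5-fold lower level in the extracranial library. P-cadherin, Cdh3 (ENSMUSG00000061048, chromosome 8), the cadherin of basal epithelial cells, had 282 counts (8.12 CPM) and 6 counts (0.224 CPM). Its log2 ratio was -5.18 (-6.64 to -4.04), 36.2-fold lower in the extracranial library. N-cadherin, Cdh2, went the other way without reaching the call, with 127 counts (3.65 CPM) in the intracranial and 216 (8.07 CPM) in the extracranial library, a log2 ratio of 1.14 (0.82 to 1.47). Retinal cadherin Cdh4 stayed within counting error, at 26 and 14 counts, and muscle cadherin Cdh15 was at 0 and 1 counts. Of the 5 type I genes 4 were tested, 2 of them called, with a median log2 ratio of -2.85 where the median over all tested genes was -0.04. The summed level of the class was 67.4 CPM in the intracranial and 9.83 CPM in the extracranial library.

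Compared per kilobase of exon, the order of E- and N-cadherin was opposite in the 2 libraries. The level of Cdh1 was 26.5 times (22.1 to 31.9) that of Cdh2 in the intracranial library, whereas Cdh2 was 4.71 times (3.13 to 7.38) Cdh1 in the extracranial library. Markers of epithelium, a list chosen with earlier results of these data known, moved with Cdh1 and Cdh3. Of 10 markers, 10 were above the floor in the intracranial library, with a summed level of 3376 CPM. In the extracranial library 3 were above it, with a summed level of 0.934 CPM. The keratins of basal epithelium led this list, Krt14 with 74653 counts against 2 and Krt5 with 25883 against 0, and Krt19, Trp63 and Cldn4 were also at 0 in the extracranial library. Of the 10 markers, 9 were called higher in the intracranial library. How much of the Cdh1 and Cdh3 transcript came from such cells was not tested, and in these bulk samples fewer cells of a type and less RNA per cell cannot be told apart.

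Factors of epithelial identity, transcription factors and the splicing regulators Esrp1 and Esrp2, followed the same order. All 7 that were listed (Grhl1, Grhl2, Ovol1, Ovol2, Esrp1, Esrp2 and Elf3) were called higher in the intracranial library, with a summed level of 122.0 against 1.08 CPM. Esrp1 had 1561 counts against 1, and Grhl2, an activator of Cdh1 transcription, had 331 against 0. Factors that repress Cdh1 transcription were expressed in both tumors, and 0 of 6 were called in either direction. Zeb2 was higher in the extracranial library, with 1926 and 3286 counts (55.4 and 122.8 CPM) and a log2 ratio of 1.15 (1.07 to 1.23). Zeb1 was lower there, with 2892 and 1040 counts (83.2 and 38.9 CPM) and a log2 ratio of -1.10 (-1.20 to -0.996), and Snai1, Snai2 and Twist1 were also beyond counting error in that direction. The 6 repressors summed to 314.6 CPM in the intracranial and 268.1 CPM in the extracranial library, with a median log2 ratio of -0.75.

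Type II classical cadherins carried more than the rest of the gene group together in the intracranial library, through Cdh11. This cadherin of mesenchymal and bone-forming cells had 20410 counts (587.4 CPM, 66.0 CPM per kilobase) in the intracranial and 5640 counts (210.8 CPM, 23.7 CPM per kilobase) in the extracranial library. The log2 ratio was -1.48 (-1.52 to -1.44), 2.79-fold lower in the extracranial library and short of the call. Cdh11 nevertheless ranked first of the 92 genes per kilobase in each library. Its share of the summed level per kilobase of the 18 classical cadherins was 74.6% in the intracranial and 58.5% in the extracranial library. Cdh5, the cadherin of endothelial junctions, was second in the extracranial library, with 35.2% of that sum against 5.81% in the intracranial library. Its counts were 750 (21.6 CPM) and 1600 (59.8 CPM), a log2 ratio of 1.47 (1.34 to 1.60). The level of Cdh11 per kilobase was 12.8 times (11.9 to 13.8) that of Cdh5 in the intracranial library and 1.66 times (1.57 to 1.76) in the extracranial library. Set against Cdh1, Cdh11 was 5.50 times (5.25 to 5.77) higher in the intracranial and 111.4 times (76.0 to 170.7) higher in the extracranial library.

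Endothelial markers moved with Cdh5. All 8 were above the floor in both libraries and higher in the extracranial library beyond counting error, none past 4-fold, with a median log2 ratio of 1.05 and summed levels of 196.1 and 327.6 CPM. The endothelial protocadherin Pcdh12 had 80 counts (2.30 CPM) in the intracranial and 203 counts (7.59 CPM) in the extracranial library, a log2 ratio of 1.72 (1.34 to 2.11). The part of endothelial content in the Cdh5 and Pcdh12 ratios was not tested. Markers of fibroblasts, which like other mesenchymal cells can express Cdh11, summed to 3291 CPM in the intracranial and 4887 CPM in the extracranial library and went both ways. Beyond counting error 5 of these 8 were higher in the extracranial library, Dcn and Lum past 4-fold, and 3 in the intracranial library as Cdh11 was, Fbln1 past 4-fold and Pdgfra and Col1a1 short of it. Macrophage markers summed to 2314 and 6703 CPM, all 8 above the floor in both libraries. Bone and tooth markers summed to 21.3 and 170.1 CPM, of which Dmp1, a matrix protein of bone and dentin, supplied 0.835 and 149.0 CPM. Of the other called genes of this list, Bglap (60 and 4 counts) and Ibsp (186 and 15 counts) were higher in the intracranial library.

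**Figure D2:**
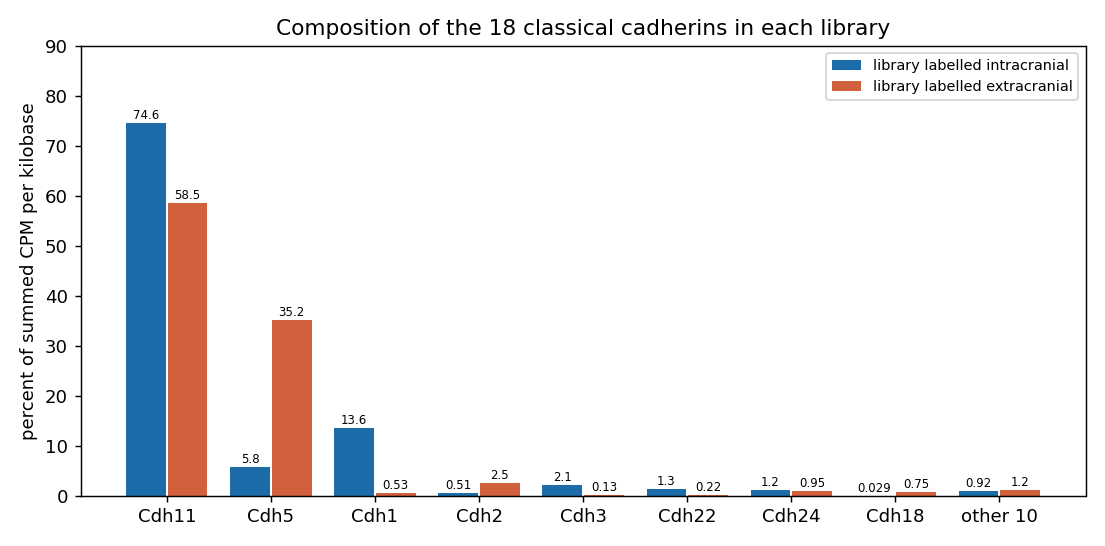
Share of each classical cadherin in the summed CPM per kilobase of exon of the 18 type I and type II genes (percent, axis from 0), for the 2 libraries, with 8 genes drawn singly and 10 together. Cdh11 takes 74.6% and 58.5%, Cdh1 13.6% and 0.525%, and Cdh5 5.81% and 35.2% in the intracranial and extracranial library.

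The 4 called type II genes had lower levels than Cdh11 and Cdh5 and are known from the nervous system and its glia. Cdh19 (ENSMUSG00000047216, chromosome 1), a cadherin of Schwann cell precursors, had 66 counts (1.90 CPM) in the intracranial and 4 (0.149 CPM) in the extracranial library, a log2 ratio of -3.67 (-5.59 to -2.24). Cdh22 (ENSMUSG00000053166, chromosome 2), first found in pituitary and brain, had 143 counts (4.12 CPM) and 9 (0.336 CPM), with a log2 ratio of -3.61 (-4.77 to -2.65). The other pair was higher in the extracranial library. Cdh8 (ENSMUSG00000036510, chromosome 8) had 0 and 41 counts (1.53 CPM). With the intracranial count set to the floor of 3, its level was 17.7-fold higher in the extracranial library. The lower limit of its counting interval, from the counts themselves, was 13.8-fold. Cdh18 (ENSMUSG00000040420, chromosome 15) had 4 counts (0.115 CPM) and 37 counts (1.38 CPM), a log2 ratio of 3.59 (2.11 to 5.54). Both are cadherins of brain neurons, at or near the floor in the intracranial library and behind Cdh11 and Cdh5 by CPM in the extracranial library.

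Beside Cdh19, 3 of 8 Schwann cell markers were called higher in the intracranial library. Sox10, the defining transcription factor of that lineage, had 43 counts against 0, and the receptor gene Erbb3 had 415 against 51. The list summed to 230.9 CPM in the intracranial and 151.5 CPM in the extracranial library, with a median log2 ratio of -2.20. A single gene of the list, not called, supplied 177.5 and 135.4 CPM of these sums. Neuronal markers, set beside Cdh8 and Cdh18, summed to 85.0 and 138.6 CPM, and 1 of 8, the neurofilament gene Nefl, was called higher in the extracranial library, with 396 and 1613 counts. The neuronal list went both ways, 5 genes being higher in the extracranial library beyond counting error and 3, Snap25, Tubb3 and Elavl4, in the intracranial library. The part of glial and neuronal content in these ratios was not tested. Skeletal muscle markers summed to 37.7 and 10.7 CPM, 1 of them (Tnnt3) called higher in the intracranial library, with Myod1 at 0 in both libraries and Pax7 and Myog at 0 in the extracranial library, where Cdh15, the muscle cadherin, had its single count.

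Of the remaining type II genes, Cdh24 was clearly detected in both libraries and the others were low. Cdh24 had 132 and 36 counts (log2 ratio -1.50, -2.07 to -0.96), and Cdh9 had 18 and 3 counts, with the interval of its ratio from -4.61 to -0.43. Cdh6, known from kidney, had 20 and 6 counts, and Cdh10 15 and 16, both within counting error. Cdh7, Cdh12 and Cdh20 were at 5 counts or fewer in each library. Over the class, 10 of 13 genes were tested, and 5 were higher in the intracranial and 3 in the extracranial library beyond counting error. For all tested genes these shares were 32.2% and 29.2%. The median log2 ratio of the class was -1.42. Because Cdh11 dominated the sum, the class total of 620.5 against 276.6 CPM, a log2 ratio of -1.17 (-1.20 to -1.13), mostly repeats that gene.

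Cadherins without the classical tail were led by Cdh13, T-cadherin, which is anchored to the membrane by lipid and binds adiponectin. Its level differed little between the libraries, with 1855 counts (53.4 CPM) in the intracranial and 1193 (44.6 CPM) in the extracranial library, a log2 ratio of -0.26 (-0.37 to -0.15). It ranked 9 of 92 per kilobase in the intracranial and 4 in the extracranial library. Cdh23, which pairs with Pcdh15 in the tip links of hair cells, had 47 and 41 counts, within counting error. Cdh26, an epithelial cadherin, had 34 and 2 counts, and its log2 ratio of -3.71 (-6.81 to -1.75) had an upper limit short of 4-fold. The kidney and gut cadherins Cdh16 and Cdh17 were at 0 in both libraries and at 1 and 0 counts, respectively.

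**Figure D3:**
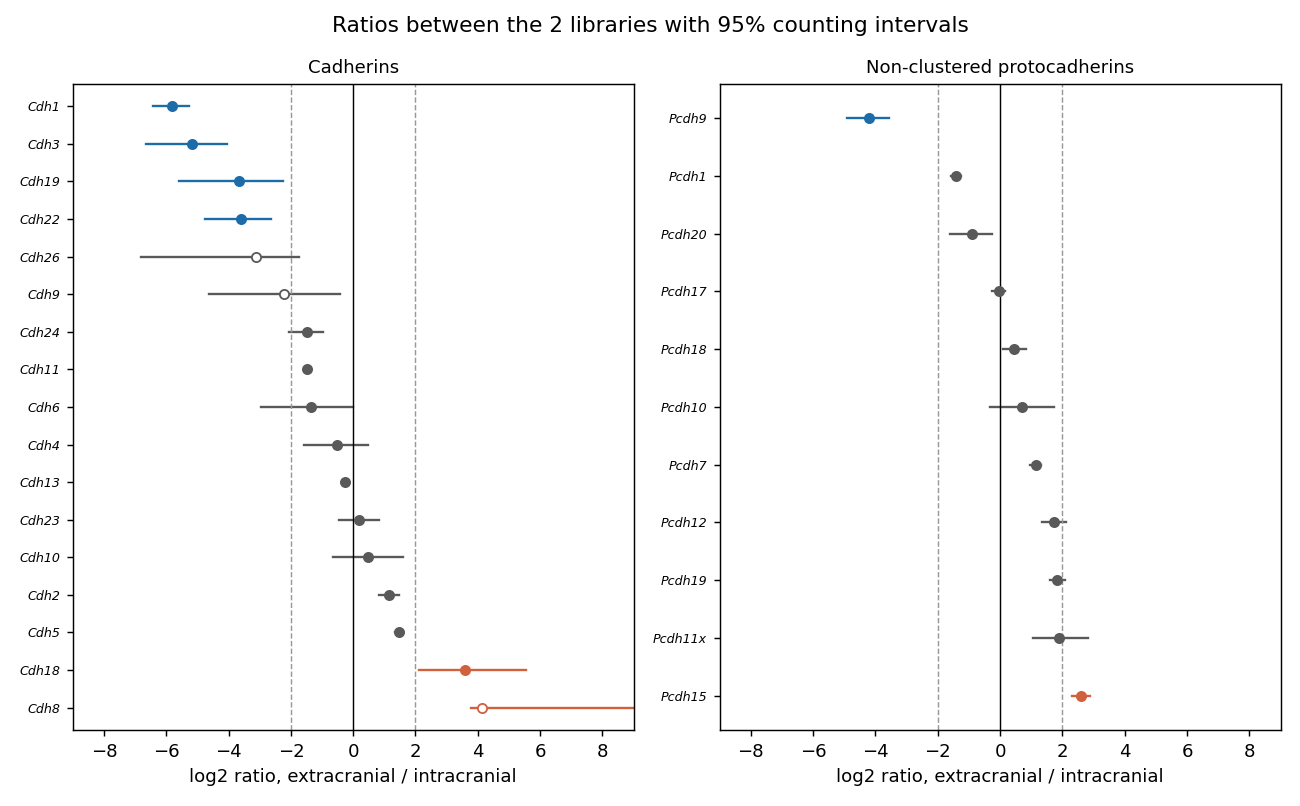
Log2 ratio of extracranial over intracranial level for each cadherin and non-clustered protocadherin, with 10 or more counts, with its 95% counting interval (blue, called higher in the intracranial library; orange, called higher in the extracranial library; grey, not called; open circles, a count of 3 or fewer set to 3; dashed lines, 4-fold). Cdh1 (-5.82) and Cdh3 (-5.18) lie farthest to the left, and Cdh8 (0 and 41 counts) and Cdh18 (3.59) farthest to the right.

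Non-clustered protocadherins went in both directions. In the delta-1 group, whose long cytoplasmic tails bind protein phosphatase, Pcdh9 (ENSMUSG00000055421, chromosome 14) was called, with 476 counts (13.7 CPM) in the intracranial and 20 (0.747 CPM) in the extracranial library. The log2 ratio of this brain protocadherin was -4.20 (-4.92 to -3.55), 18.3-fold lower in the extracranial library. Pcdh1, which is known from airway epithelium, had 1378 counts (39.7 CPM) and 395 (14.8 CPM), with a log2 ratio of -1.43 (-1.59 to -1.26). Pcdh7 and the X-linked Pcdh11x were higher in the extracranial library. Pcdh7 had 395 and 670 counts (11.4 and 25.0 CPM), a log2 ratio of 1.14 (0.96 to 1.32), and Pcdh11x 16 and 46 counts (log2 ratio 1.90, 1.05 to 2.82). The 4 genes thus split evenly by direction, and their median log2 ratio was -0.14.

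In the delta-2 group, whose tails recruit the WAVE complex that starts actin branches, 2 genes were higher in the extracranial and 0 in the intracranial library beyond counting error. By this criterion 29.2% of all tested genes were higher in the extracranial and 32.2% in the intracranial library. Pcdh19, an X-linked gene known from epilepsy, had 200 counts (5.76 CPM) and 547 (20.4 CPM), a log2 ratio of 1.83 (1.59 to 2.07). Pcdh18 had 120 and 127 counts (log2 ratio 0.46, 0.09 to 0.83). Pcdh17 gave nearly the same level in both tumors, with 412 and 307 counts (11.9 and 11.5 CPM) and a log2 ratio of -0.05 (-0.27 to 0.17). Pcdh10 and Pcdh8 were low, at 16 and 20 counts and at 3 and 4 counts. The 9 WAVE complex genes were well expressed, at 720.0 and 820.5 CPM in all, and 0 of them were called, with a median log2 ratio of 0.30.

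Of the 3 remaining non-clustered genes, Pcdh15 (ENSMUSG00000052613, chromosome 10), the tip-link protocadherin whose promoter is printed above, was called. It had 120 counts (3.45 CPM) in the intracranial and 556 counts (20.8 CPM) in the extracranial library, a log2 ratio of 2.59 (2.30 to 2.89), while its partner Cdh23 did not differ beyond counting error. Pcdh20 had 66 and 27 counts (log2 ratio -0.91, -1.62 to -0.25), and Pcdh12 was described with endothelium. Per kilobase of exon, the order of non-clustered protocadherins also differed between tumors. Pcdh1 (4.51 CPM per kilobase), Pcdh9 (2.02) and Pcdh7 (1.07) stood highest in the intracranial library, and Pcdh7 (2.36), Pcdh19 (1.95) and Pcdh1 (1.68) in the extracranial library.

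The 57 clustered protocadherins lie on chromosome 18, where each alpha and gamma gene has its own first exon and shares the last exons with the other members of its cluster. Reads of the shared exons cannot be given to 1 gene, and how the counting treated them was not stated. The exon sequence not shared with another gene was a median of 46.4% per alpha gene, 55.5% per gamma gene and 100% per beta gene, beta genes having exons largely of their own. Alpha and gamma values are therefore uncertain gene by gene. If shared reads were dropped, levels per kilobase and cluster sums understate these genes beside the beta genes. Among the 57 genes, 43 were tested and 5 called, 2 higher in the intracranial and 3 in the extracranial library. Over all tested genes 7.19% were called, 5.41% higher in the intracranial and 1.78% in the extracranial library.

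Beta protocadherins were the cluster with the most counts, and they were higher in the intracranial library as a group. How much of the gap to the alpha and gamma clusters comes from the treatment of shared reads is unknown. Of 22 genes, 21 were tested, with a median log2 ratio of -1.24. Beyond counting error 17 were higher in the intracranial and 3 in the extracranial library. The background at this criterion was 32.2% and 29.2% of all tested genes. The sum of the cluster was 298.1 CPM in the intracranial and 132.2 CPM in the extracranial library, a log2 ratio of -1.17 (-1.23 to -1.12). Called were Pcdhb13 (ENSMUSG00000047307), with 493 and 54 counts (14.2 and 2.02 CPM) and a log2 ratio of -2.81 (-3.25 to -2.41), and Pcdhb19 (ENSMUSG00000043313), with 521 and 73 counts (15.0 and 2.73 CPM) and a log2 ratio of -2.46 (-2.83 to -2.10). Pcdhb9 lay just inside the limit, with 1527 and 270 counts (43.9 and 10.1 CPM) and a log2 ratio of -2.12 (-2.31 to -1.94). The most counted gene was Pcdhb5 in both libraries, with 1569 counts (45.2 CPM) in the intracranial and 592 (22.1 CPM) in the extracranial library, or 15.1% and 16.7% of the cluster's counts. Behind it the order differed: Pcdhb9, Pcdhb20 and Pcdhb17 followed in the intracranial library, and Pcdhb22, Pcdhb11 and Pcdhb17 in the extracranial library.

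The 3 beta genes against the direction of the cluster were Pcdhb6, Pcdhb11 and Pcdhb22. Pcdhb6 was low, with 15 and 54 counts and a log2 ratio of 2.22 (1.38 to 3.16). Pcdhb11 had 301 and 330 counts (log2 ratio 0.51, 0.28 to 0.74), and Pcdhb22 had 519 and 489 counts (log2 ratio 0.29, 0.11 to 0.47). Pcdhb22 shares exon sequence with Pcdhb21 in the annotation, so the split of reads between this pair is uncertain. Pcdhb8 was within counting error at 43 and 45 counts, and Pcdhb1, the first gene of the cluster, was at 0 in both libraries.

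**Figure D4:**
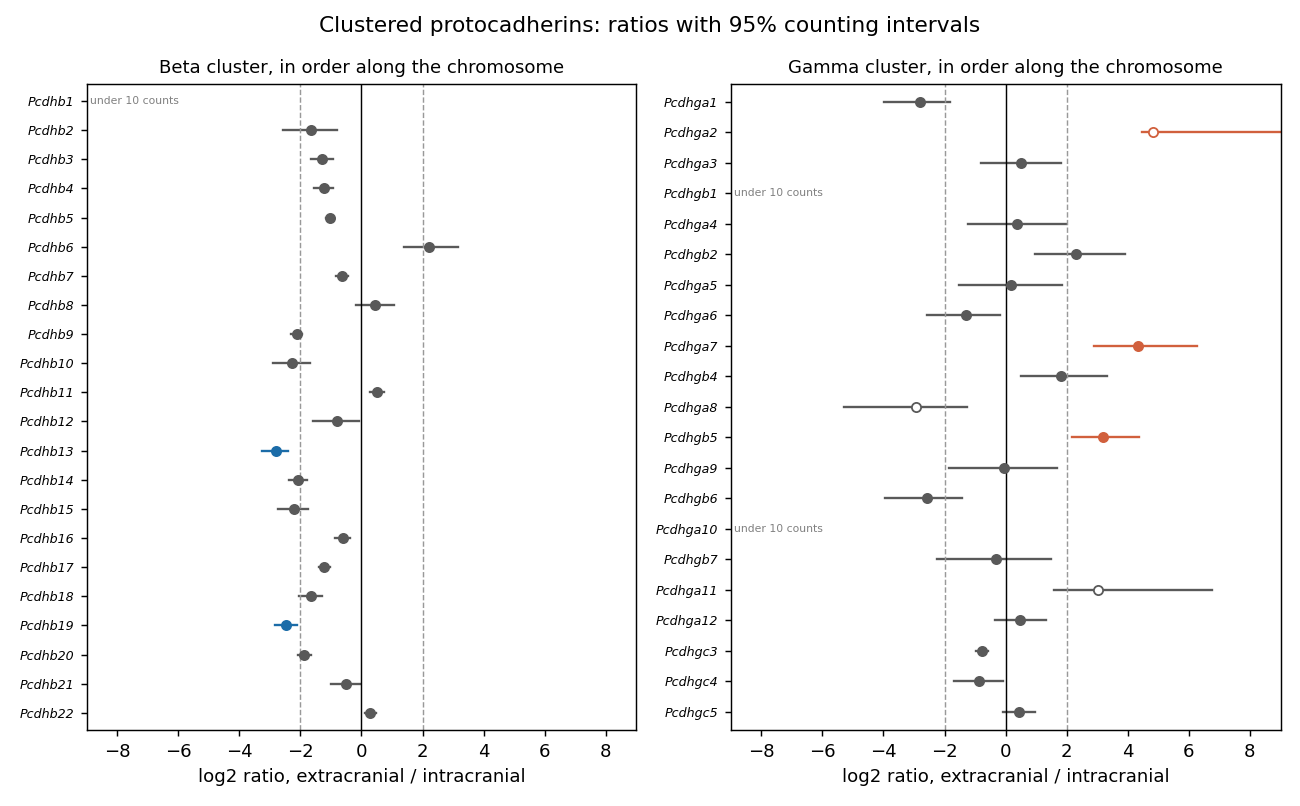
Log2 ratio of extracranial over intracranial level, with its 95% counting interval, for the beta and gamma protocadherins in their order along the chromosome (blue, called higher in the intracranial library; orange, called higher in the extracranial library; grey, not called; open circles, a count of 3 or fewer set to 3; dashed lines, 4-fold; no point under 10 counts). Most beta genes lie left of 0, 17 of them beyond counting error, while gamma genes lie on both sides and Pcdhga2, Pcdhga7 and Pcdhgb5 far to the right.

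Gamma protocadherins had close sums, 30.9 CPM in the intracranial and 27.5 CPM in the extracranial library. Pcdhgc3 was the most counted gene in both, and the order of the genes behind it differed. Of 19 tested genes among 21, 6 were higher in each library beyond counting error. Among all tested genes, 32.2% were higher in the intracranial and 29.2% in the extracranial library at this criterion. The median log2 ratio of the gamma genes was 0.38 and that of the sums -0.17 (-0.31 to -0.03), which differ in sign. With 100 or more counts required the median was -0.16. Called were Pcdhga2, Pcdhga7 and Pcdhgb5, each higher in the extracranial library. Pcdhga2 (ENSMUSG00000103332) had 0 and 65 counts (2.43 CPM). With the intracranial count set to the floor of 3, it was 28.1-fold higher in the extracranial library. The lower limit of its counting interval, from the counts themselves, was 22.2-fold. Pcdhga7 (ENSMUSG00000103472) had 4 and 62 counts (log2 ratio 4.33, 2.90 to 6.25), and Pcdhgb5 (ENSMUSG00000103749) had 9 and 63 counts (log2 ratio 3.18, 2.17 to 4.38). These 3 genes stood at ranks 2, 5 and 4 of the cluster by counts in the extracranial library, with 8.84%, 8.44% and 8.57% of its counts. Other genes of the cluster were higher in the intracranial library beyond counting error: Pcdhga1 had 82 and 9 counts (log2 ratio -2.81, -3.99 to -1.82), Pcdhgb6 had 54 and 7 counts (log2 ratio -2.57, -3.95 to -1.43), and Pcdhga8 had 30 and 3 counts (log2 ratio -2.95, -5.30 to -1.26). None of these 3 intervals lay wholly beyond 4-fold.

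The C-type gene Pcdhgc3, which is transcribed in most cells rather than chosen cell by cell, was the most counted gamma gene in both tumors. It had 669 counts (19.3 CPM) in the intracranial and 302 (11.3 CPM) in the extracranial library, a log2 ratio of -0.77 (-0.97 to -0.57). Its share of the gamma counts was 62.3% (59.3 to 65.2) in the intracranial and 41.1% (37.5 to 44.7) in the extracranial library, by exact binomial intervals. Pcdhgc4, at 47 and 20 counts, had a log2 ratio of -0.86 (-1.69 to -0.07), and Pcdhgc5, at 61 and 64 counts, was within counting error. The A-type genes together had 208 and 228 counts (log2 ratio 0.51, 0.23 to 0.79), and the B-type genes 89 and 121 counts (log2 ratio 0.82, 0.41 to 1.23). The C-type genes together had 777 and 386 counts (log2 ratio -0.63, -0.81 to -0.45). Each of these ratios moved when 1 gene was left out. That gene was picked by its extracranial count, so the move does not show that a sum rested on it alone. Pcdhga7, also of A-type, had 4 and 62 counts. Without Pcdhga2, Pcdhgb5 and Pcdhgc3, the gene of each type with the most counts in the extracranial library, the log2 ratios were 0.03 (-0.28 to 0.33), -0.09 (-0.60 to 0.42) and 0.01 (-0.41 to 0.44), all within counting error.

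As counted, alpha protocadherins were close to the limit of detection. All 14 genes together had 34 counts (0.979 CPM) in the intracranial and 49 (1.83 CPM) in the extracranial library, a log2 ratio of 0.90 (0.24 to 1.58). Of these, 3 reached 10 counts: Pcdha5 with 10 and 19, Pcdha11 (ENSMUSG00000007440) with 8 and 17, and Pcdha9 with 5 and 6. The first 2 were higher in the extracranial library beyond counting error, and 0 were called. The C-type alpha genes were lower still, Pcdhac1 at 0 in both libraries and Pcdhac2 at 2 counts in each. Regulators of promoter choice in these clusters, among them Ctcf, cohesin subunits and Smchd1, were expressed in both tumors, at 703.1 and 755.3 CPM over 12 genes, and 0 were called, with a median log2 ratio of 0.03. Smchd1, which silences clustered protocadherins, was the farthest from 0, with 1291 and 1600 counts and a log2 ratio of 0.69 (0.58 to 0.79).

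Partners on the cytoplasmic side were described from lists chosen with earlier results of these data known. Of 11 measured catenins and linked adaptors, 8 were higher in the intracranial and 2 in the extracranial library beyond counting error, with a median log2 ratio of -0.43 and sums of 930.8 and 562.9 CPM. Called were Jup, plakoglobin, which also serves desmosomes, with 6596 and 633 counts and a log2 ratio of -3.00 (-3.12 to -2.89), and the neural delta-catenin Ctnnd2, with 60 and 387 counts and a log2 ratio of 3.07 (2.67 to 3.48). The catenins common to classical cadherins differed little: beta-catenin, Ctnnb1, had 9331 and 5854 counts (log2 ratio -0.30, -0.34 to -0.25), and Ctnna1 8271 and 5054 counts (log2 ratio -0.33, -0.38 to -0.28). Proteases that cut cadherins, such as Adam10 and the presenilins, summed to 511.3 and 572.6 CPM, and 0 of 6 were called.

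Atypical cadherins, large relatives that steer planar polarity and growth, are named Fat, Dchs, Celsr, Clstn or Cdhr and stood outside the 92 genes. Of 17 listed, 12 were tested, 5 were called higher in the intracranial library (Fat2, Celsr1, Celsr2, Clstn2 and Cdhr1) and 1 in the extracranial library (Fat3). Fat2, known from squamous epithelium and cerebellum, had 516 counts against 2, and Fat3, known from neurons, had 22 against 181. Dchs1, the ligand of Fat4, had 107 and 398 counts (log2 ratio 2.27, 1.96 to 2.59) that did not pass the call, and Fat4 1218 and 1119 counts (log2 ratio 0.25, 0.14 to 0.37).

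**Figure D5:**
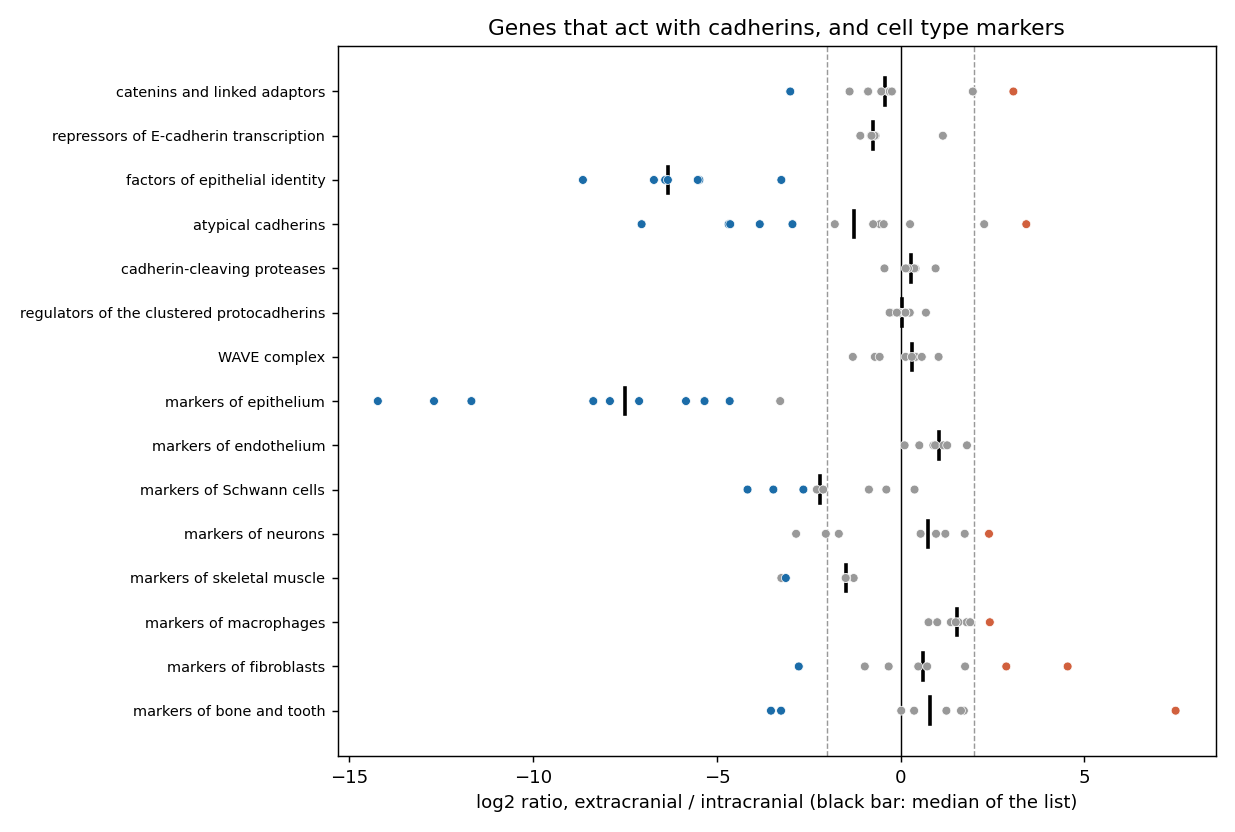
Log2 ratio of extracranial over intracranial level for the genes of each partner and marker list with a ratio, a point per gene and a bar at the list median (blue and orange, called higher in the intracranial and extracranial library; grey, not called; dashed lines, 4-fold). Factors of epithelial identity (median -6.33) and epithelial markers (median -7.51) lie far to the left, macrophage markers (1.53) and endothelial markers (1.05) to the right, and regulators of the clustered protocadherins near 0 (0.03).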

How the data were processed

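Poly(A) RNA of 2 tumors was sequenced as directional single-read libraries. The authors aligned reads with STAR 2.7.9a to GRCm39 and counted them per Ensembl gene with featureCounts, per the labels and the methods, after quality control with FastQC 0.11.9 and MultiQC 1.11. The deposited table holds these raw counts, without normalization, for 55416 genes. The strand setting and the treatment of reads that overlap several genes were not stated, so overlapping and antisense genes are uncertain.

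Symbols (52135 IDs, 94.08%), gene types and exon lengths were taken from GENCODE release 21 (GRCm38), and promoter windows from RefSeq (GRCm38.p6). Counts were scaled with TMM (edgeR 4.0.16, R 4.3.3). Levels were given Clopper-Pearson 95% intervals, and ratios conditional exact binomial 95% intervals (scipy 1.17.1). Genes with 10 or more counts were tested, and called where the interval lay beyond 4-fold. In list medians, a count of 3 or fewer was set to 3, and genes at or below 3 in both libraries had no ratio. With 1 library per location, no replicate test and no p-value could be given, and depth limits the precision. The calling was tested on simulated data.

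Every called gene, and the 3 genes of each class with the highest level per kilobase, were to be given in full, and partner or marker genes were named where called or highest. Other named partner genes were chosen after their values were seen. The members and lists were chosen with earlier results of these data known. The partner gene Arvcf was not analysed here, and 1 marker gene is not reported by name here. Alternatives were scaling by upper quartiles, by total counts or by the size factors of DESeq2 1.42.0, other fold and count limits, and, chosen after seeing the data, levels per unshared exon and gamma sums without 1 gene.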

Additional observations from a re-analysis of the deposited data

How the results depend on the processing

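Scaling by DESeq2 size factors, by total counts or by upper quartiles shifted every log2 ratio by 0.02, -0.02 or 0.04 and changed no direction and no count by over 1.5 times. Counts of called genes depended on the fold limit and on the count minimum. At 2-fold in place of 4-fold, 6 non-clustered protocadherins, 17 clustered protocadherins and 32 of all members were called, and over all genes 3434, of which 2147 were higher in the intracranial and 1287 in the extracranial library. By the ratio alone, without its interval, 15 clustered protocadherins, 25 members and 2542 of all genes were called, 787 of these higher in the extracranial library. With 100 or more counts required, 3 cadherins, 2 clustered protocadherins and 7 members were called. Over all genes 1155 were called at that minimum, 884 higher in the intracranial and 271 in the extracranial library. The number of genes tested at that minimum is not given here, so shares are not compared. The median log2 ratios were then -5.18 for type I cadherins, -1.43 for delta-1 protocadherins and 2.15 for other non-clustered protocadherins. For gamma protocadherins the median was -0.16, with the opposite sign to the main value of 0.38. No alpha gene reached that minimum. By counts in place of levels per kilobase, the share of Cdh11 among classical cadherins was 85.4% and 73.6%. Per kilobase of unshared exon, Pcdhgc3 ranked 7 and 5 in place of 12 in both libraries. Without its gene of most extracranial counts, the summed log2 ratio of A-, B- and C-type gamma genes was 0.03, -0.09 and 0.01. No called gene changed direction, and 145 comparisons of the main results and 39 of single genes kept their direction and stayed within their limits. No paired analysis was possible because there was 1 library per location, and for the same reason no replicate could be left out. At these depths a gene under 10 counts over both libraries has no ratio worth reading, which leaves most alpha genes and several neural cadherins undescribed. The spread between tumors of 1 location is unknown, and location, tumor, animal and cell makeup cannot be told apart.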
